A study of Homo sapiens with 15 samples.

Results

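The question here was which genes change within 6 h when C42B cells receive the androgen receptor blocker enzalutamide and no other drug. C42B is an established, castration-resistant human prostate cancer line derived from LNCaP. The comparison rested on 5 of the 15 arrays of the series, picked by their titles: 2 arrays of cells given 10 µM enzalutamide and 3 arrays of cells given the vehicle, 0.125% dimethyl sulfoxide (DMSO). No DMSO percentage was recorded for the drug-treated wells. All wells held RPMI medium with 10% fetal bovine serum, and no depletion of steroids from the serum was recorded. The other arrays held 15 µM of a sphingosine kinase inhibitor, PF-543 (3 arrays) or ABC294640 (1 array), or either of these with 10 µM enzalutamide (3 arrays each), also for 6 h. Separate cultures are not stated for the replicates, so each p-value weighs a difference against a spread between samples that may be technical only. RNA was read on a whole-transcript Affymetrix array, and 17687 genes with a single symbol were tested.

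The androgen receptor is a transcription factor that enters the nucleus when it binds androgen and switches on genes of luminal prostate cells, among them the kallikrein proteases and TMPRSS2. Enzalutamide occupies the hormone pocket and hinders the receptor's move to the nucleus and its hold on DNA. Genes that depend on the receptor then lose transcripts at the pace at which their RNA decays.

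The 3 DMSO arrays stood apart from every other array. The first principal component of the genes, with 15.3% of the variance, placed them at 18.9 to 24.8, the enzalutamide arrays at -5.6 and 0, and the 10 others between -11.6 and -0.8. A difference from DMSO can therefore hold whatever sets the DMSO arrays apart, and its part in the results was not tested in the comparison with DMSO itself. The log2 step from PF-543 to enzalutamide plus PF-543 uses none of those 5 arrays, so its value for each called gene is given as the version without them. Its p-values do not leave them out, since the spread is pooled over every group with more than 1 array. Correlations over genes were 0.9959 between the enzalutamide arrays, 0.9957 to 0.9959 among the DMSO arrays, and 0.9945 to 0.9954 between the groups. Array medians lay between 6.72 and 6.75 in log2 units, and no pair of arrays held identical values. All 8 measured markers of luminal prostate epithelium lay above the median of all genes, at 8.84 to 16.23. Of the other cell types' markers, all 3 basal, 6 neuroendocrine, 4 endothelial and 5 immune genes, and 5 of 6 fibroblast genes, had means below that median. The exception was the collagen gene COL1A2, at a mean of 9.34.

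Enzalutamide changed 55 genes at a limma adjusted p under 0.05, of which 33 fell (0.187% of those tested) and 22 rose (0.124%). The falls were larger: 19 of the 33 reached 2-fold, against 4 of the 22 rises. The median log2 difference was -1.06 among the falls and 0.76 among the rises, against -0.012 over all genes, whose 5th and 95th percentiles were -0.41 and 0.37. In each of the 55 the arrays of the groups did not overlap, a pattern that 14.6% of all genes showed downwards and 13.5% upwards. Before adjustment 2273 genes (12.9%) had p under 0.05, where 884 would be reached with no differences at all. The count moved with single arrays: 12 genes passed without enzalutamide replicate 2, 19 without replicate 1, and 32, 48 and 58 without DMSO replicates 2, 1 and 3. So few arrays limit the precision. With 1 enzalutamide array left, that array was assumed to vary like the other groups. C1orf116, ZBTB16, CDC42EP3, RHOU, SLC45A3, TMPRSS2, DIPK2A and CHAC1 were the 8 of 55 that passed in all 5 of these fits. A fit restricted to the 5 arrays called 3 genes, C1orf116, ZBTB16 and RHOU.

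Genes known to rise with androgen held more of the falls than any other list. Of 34 classical androgen-induced genes 29 were measured, of which 9 fell, 0 rose and 20 did not pass. Their median log2 difference was -0.44, and 23 of the 29 had both enzalutamide arrays below all DMSO arrays (14.6% of all genes did). The receptor gene itself and FKBP5 are not analysed here. In bulk RNA, fewer cells that express a gene and less RNA per cell cannot be told apart.

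C1orf116, which encodes an androgen-regulated protein also called SARG, fell most of all genes. It read 12.58, 12.76 and 12.78 in log2 units on the DMSO arrays and 10.21 and 10.10 with enzalutamide. The drop was 5.86-fold (log2 -2.55 ± 0.12 SE, adjusted p = 3.6e-07), many times wider than the spread within either group. ZBTB16, a zinc-finger repressor (PLZF) that androgen and glucocorticoid both induce, went from 9.34, 9.41 and 9.46 to 7.19 and 6.98, a 4.99-fold fall (log2 -2.32 ± 0.18, adjusted p = 4.71e-05). SLC45A3, which encodes prostein, a luminal membrane protein, fell 2.2-fold from 12.77, 12.90 and 12.77 to 11.57 and 11.78 (adjusted p = 0.000384). TMPRSS2, the membrane protease whose promoter is fused to ERG in many prostate tumours, read 10.05, 9.95 and 9.98 and then 9.02 and 8.84, a 2.09-fold fall (adjusted p = 0.000604). These 4 genes had a tight spread in both groups and kept their calls whichever array was left out. On the PF-543 arrays ZBTB16 fell by 2.16, SLC45A3 fell by 1.41 and TMPRSS2 fell by 1.12 (adjusted p = 2.2e-05, 1.06e-05 and 7.73e-05), and C1orf116 is described with that comparison.

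The other 5 classical genes that fell held their calls less firmly. PMEPA1, a membrane protein that limits TGF-beta signalling and androgen receptor levels, fell 2.6-fold, from 10.06, 10.32 and 10.17 to 8.88 and 8.73 (adjusted p = 0.00321). TNFAIP8, an anti-apoptotic lipid-binding protein, read 8.62, 8.67 and 8.62 with DMSO and 7.44 and 7.72 with the drug (2.08-fold, adjusted p = 0.00321). MAF, a leucine-zipper transcription factor, fell 2.36-fold from 8.18, 7.78 and 8.18 to 6.81 and 6.80 (adjusted p = 0.0333). MAK, a kinase named for male germ cells, and ELL2, a transcription elongation factor, fell by 1.20 and 0.60 on the log2 scale (adjusted p = 0.00976 and 0.0399). Without enzalutamide replicate 2 the adjusted p was 0.0578 for PMEPA1 and 0.165 for MAK, and without replicate 1 it was 0.0619 for TNFAIP8. MAF passed only without DMSO replicate 2, with adjusted p up to 0.198, and ELL2 passed in none of the 5 fits that left out an array (up to 0.208). In the PF-543 background PMEPA1 (log2 -1.67, adjusted p = 0.000182), MAF (-1.68, 0.00161), TNFAIP8 (-0.72, 0.0206) and ELL2 (-0.76, 0.00354) fell, and MAK gave -0.57 (0.236).

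The kallikreins showed smaller steps. KLK3, which encodes prostate-specific antigen, read 16.18, 16.22 and 16.23 on the DMSO arrays and 15.83 and 15.75 with enzalutamide, a log2 difference of -0.42 ± 0.09 (adjusted p = 0.0784). KLK2, the neighbouring protease gene, read 13.35, 13.32 and 13.45 and then 13.05 and 12.81, a difference of -0.44 ± 0.13 (adjusted p = 0.181). Both lay below DMSO on both arrays without passing. With PF-543 in both groups, KLK2 fell by 0.62 (adjusted p = 0.0483), and KLK3 gave -0.34 (0.151). NDRG1 (-0.83, adjusted p = 0.113), PPFIBP2 (-0.62, adjusted p = 0.135) and CAMKK2, a kinase that activates AMPK (-0.56, adjusted p = 0.147), also lay below without overlap. SGK1, a kinase induced by steroid hormones, had the widest DMSO spread, at 6.21, 5.58 and 4.69, and overlapped the enzalutamide arrays at 4.69 and 4.04.

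**Figure D1:**
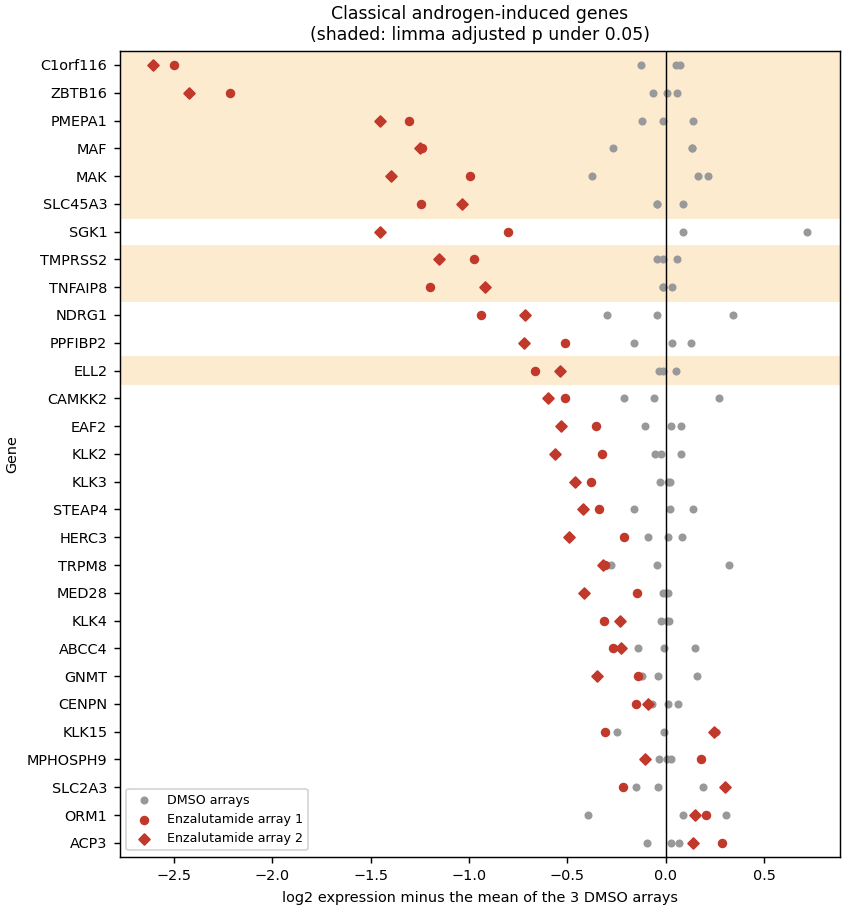
Each point is 1 array's log2 expression of a classical androgen-induced gene minus that gene's mean over the 3 DMSO arrays (grey DMSO, red circles and diamonds enzalutamide replicates 1 and 2), with shaded rows for the 9 genes past the threshold. C1orf116 and ZBTB16 lie more than 2 log2 units down on both drug arrays, and the points of KLK3 and KLK2 lie between -0.25 and -0.6.

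A wider androgen response list of 100 genes, 89 of them measured, held 8 that fell and 0 that rose, with a median of -0.12. It shares 6 of those 8 with the classical list. The additions were ZBTB10, a zinc-finger repressor (log2 -0.94, adjusted p = 0.016), and PTPN21, a cytoskeletal tyrosine phosphatase (-0.87, adjusted p = 0.0451). ZBTB10 lost its call without either enzalutamide array or DMSO replicate 2 (up to 0.165), and PTPN21 in every such fit but that without DMSO replicate 3 (up to 0.228). On the PF-543 arrays ZBTB10 fell by 0.89 (adjusted p = 0.0133), and PTPN21 gave -0.72 (0.0729). Of 9 glucocorticoid-induced genes 2 fell, ZBTB16 and ERRFI1. The glucocorticoid receptor gene NR3C1 read 4.03, 4.0 and 4.34 with DMSO and 3.90 and 3.80 with the drug (adjusted p = 0.582).

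Among 14 measured members of the receptor's own machinery, meaning pioneer factors, coactivators, corepressors and chaperones, 2 rose and 0 fell. HOXB13, the homeobox factor that guides the androgen receptor to prostate enhancers, rose 1.69-fold, from 12.63, 12.60 and 12.50 to 13.38 and 13.28 (log2 0.75 ± 0.10, adjusted p = 0.00578). GATA2, a pioneer factor for the same enhancers, rose 1.53-fold, from 12.08, 11.89 and 11.91 to 12.52 and 12.63 (adjusted p = 0.0333). HOXB13 lost its call without either enzalutamide array (up to 0.0863), and GATA2 passed only without DMSO replicate 1 (up to 0.233). With PF-543 present the same drug gave log2 0.36 for HOXB13 (adjusted p = 0.199) and 0.17 for GATA2 (0.711). Of 7 androgen-repressed genes MYC alone passed. The chemokine scavenger receptor ACKR3, from the same list, read 5.61, 5.97 and 5.92 and then 6.89 and 6.39 (log2 0.81, adjusted p = 0.225). None of 19 genes of androgen conversion and glucuronidation passed, and their median was -0.063.

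SNAI2 and KLF5, transcription factors outside the classical list, were among the 20 largest falls. SNAI2 (Slug), a zinc-finger repressor of epithelial genes, read 6.29, 6.74 and 6.69 with DMSO and 5.12 and 4.05 with enzalutamide, a 3.97-fold fall (log2 -1.99 ± 0.34, adjusted p = 0.0267). The enzalutamide arrays of SNAI2 lay more than 1 log2 unit apart, and the call was lost without DMSO replicate 2, DMSO replicate 3 or enzalutamide replicate 2 (up to 0.235). With PF-543 present SNAI2 again fell by 2.45 on the log2 scale (adjusted p = 0.00264). KLF5, a growth-promoting factor of epithelia, fell 2.93-fold, from 8.80, 8.52 and 8.54 to 7.17 and 6.97 (adjusted p = 0.00321, and 0.0578 without enzalutamide replicate 2), and on the PF-543 arrays fell by 1.85 (adjusted p = 0.000182). SNAI2 and KLF5 were the 2 of 19 genes of epithelial identity and mesenchymal transition that passed. SNAI1, the related Snail repressor, lay on the other side of DMSO, at 7.52, 7.92 and 7.84 against 8.52 and 8.18 (log2 0.59, adjusted p = 0.16).

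Families of these factors were looked up after the falls were seen, as a description of how far each reached. Of 16 measured KLF factors KLF5 and KLF7 fell, and the family median was -0.18. KLF7, linked to neuronal growth, read 11.46, 11.45 and 11.56 and then 10.68 and 10.87 (1.64-fold, adjusted p = 0.0136). Of 39 measured ZBTB genes, which pair a BTB domain with zinc fingers, ZBTB16, ZBTB10 and ZBTB14 fell, and the family median was 0.002. ZBTB14 fell by 0.59 (adjusted p = 0.0318) but passed in none of the fits that left out an array (up to 0.175), and KLF7 lost its call without either enzalutamide array (up to 0.147). In the PF-543 background KLF7 fell by 0.85 (adjusted p = 0.00161), and ZBTB14 gave -0.17 (0.682).

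Further falls, CDC42EP3, RHOU, FGD4 and RND3, belonged to no list fixed for this comparison and are set together only because each encodes a regulator of the actin cytoskeleton. They were singled out after their values were seen, and nothing is said of other such genes. CDC42EP3, an effector that bundles septins and actin, fell 3.88-fold, from 8.84, 9.05 and 8.50 to 6.67 and 7.01 (log2 -1.96 ± 0.20, adjusted p = 0.000604). RHOU, an atypical Cdc42-like GTPase, fell 3.51-fold, from 11.71, 11.66 and 11.55 to 9.77 and 9.89 (log2 -1.81 ± 0.14, adjusted p = 4.71e-05). With PF-543 in both groups, CDC42EP3 fell by 1.79 and RHOU fell by 1.98. FGD4, an exchange factor for Cdc42, read 9.15, 9.60 and 9.49 and then 8.35 and 8.26 (2.16-fold, adjusted p = 0.015). RND3, an atypical GTPase that loosens actin fibres, read 10.30, 10.46 and 10.42 and then 9.29 and 9.52 (1.98-fold, adjusted p = 0.0094). Neither kept its call without either enzalutamide array, nor FGD4 without DMSO replicate 2 or 3 (up to 0.166 for FGD4 and 0.121 for RND3). On the PF-543 arrays their differences were -0.52 and -0.19 (adjusted p = 0.314 and 0.757).

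SEMA6D, CCDC141 and PCDH20 fell and belonged to no list. SEMA6D, a transmembrane semaphorin that guides axons and cells, read 7.81, 7.61 and 7.79 and then 6.81 and 6.41 (2.18-fold, adjusted p = 0.0052). With PF-543 present it fell by 1.39 (adjusted p = 0.000284). PCDH20, a protocadherin, fell by 0.85 (adjusted p = 0.0333). CCDC141, a centrosomal protein needed for neuronal migration, read 7.77, 7.79 and 7.53 and then 6.69 and 6.41 (2.21-fold, adjusted p = 0.0078). SEMA6D and CCDC141 lost their calls without enzalutamide replicate 2 (0.101 and 0.128), and PCDH20 in every such fit but that without DMSO replicate 3 (up to 0.175). In the PF-543 background CCDC141 fell by 1.03 (adjusted p = 0.00793), and PCDH20 gave -0.63 (0.103).

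In the list of ERK and EGF receptor feedback, 1 of 12 genes fell and 11 did not pass, with a median of -0.25. ERRFI1 (MIG6), which binds the EGF receptor kinase and shuts it off, read 13.71, 13.70 and 13.77 with DMSO and 12.81 and 12.78 with enzalutamide, a 1.91-fold fall (log2 -0.93 ± 0.11, adjusted p = 0.00248). LRIG1, which belonged to no list, is a membrane protein that promotes breakdown of ERBB receptors and fell 1.92-fold, from 11.34, 11.55 and 11.33 to 10.47 and 10.46 (adjusted p = 0.0107). The phosphatase DUSP4, from the feedback list, read 9.94, 9.94 and 9.66 and then 9.13 and 9.19 (log2 -0.69, adjusted p = 0.0631). ERRFI1 reached adjusted p = 0.05 without enzalutamide replicate 2, and LRIG1 lost its call without either enzalutamide array or DMSO replicate 2 (up to 0.116). With PF-543 in both groups, ERRFI1 fell by 0.61 (adjusted p = 0.0195), and LRIG1 gave -0.63 (0.0615).

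The remaining falls had no common list. DIPK2A, a secreted kinase-like protein, fell 2.07-fold, from 9.57, 9.41 and 9.46 to 8.56 and 8.30 (adjusted p = 0.000691). FBXO38, a ubiquitin ligase subunit, fell by 0.68 (adjusted p = 0.0037), the membrane-bound ubiquitin ligase MARCHF3 by 1.02 (0.0267), and OTULINL, a relative of the deubiquitinase OTULIN, by 0.94 (0.019). FAM110B, a centrosomal protein, and MTMR9, a catalytically inactive myotubularin, fell by 0.94 and 0.89 (adjusted p = 0.0147 and 0.0318). CYBB, the catalytic subunit of the phagocyte NADPH oxidase, read 5.65, 5.99 and 6.09 and then 4.75 and 4.76 (adjusted p = 0.0377). The orphan receptor gene GPR151 read 5.09, 5.09 and 5.31 and then 4.14 and 3.92 (adjusted p = 0.0078), and NPY4R, a receptor for pancreatic polypeptide, read 2.96 to 3.64 over the 5 arrays (adjusted p = 0.0451). These 3 lay in the lower part of the value range, where the median gene read 7.05 to 7.09. None of them was judged against background, since detection calls were not analysed here. Each of the 8 genes other than DIPK2A lost its call without either enzalutamide array, GPR151 at up to 0.125 and FBXO38 at up to 0.0578. MTMR9 and NPY4R lost it in every fit that left out an array (up to 0.255 and 0.274), and FAM110B, OTULINL, MARCHF3 and CYBB also without 2 of the DMSO arrays, left out singly (up to 0.235). On the PF-543 arrays DIPK2A (log2 -0.71, adjusted p = 0.00592), FBXO38 (-0.54, 0.00803), OTULINL (-0.85, 0.02) and FAM110B (-0.86, 0.0143) fell. MTMR9 (-0.67, 0.0813), MARCHF3 (-0.28, 0.693) and NPY4R (-0.12, 0.804) did not pass there, and CYBB and GPR151 are described with that comparison.

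**Figure D2:**
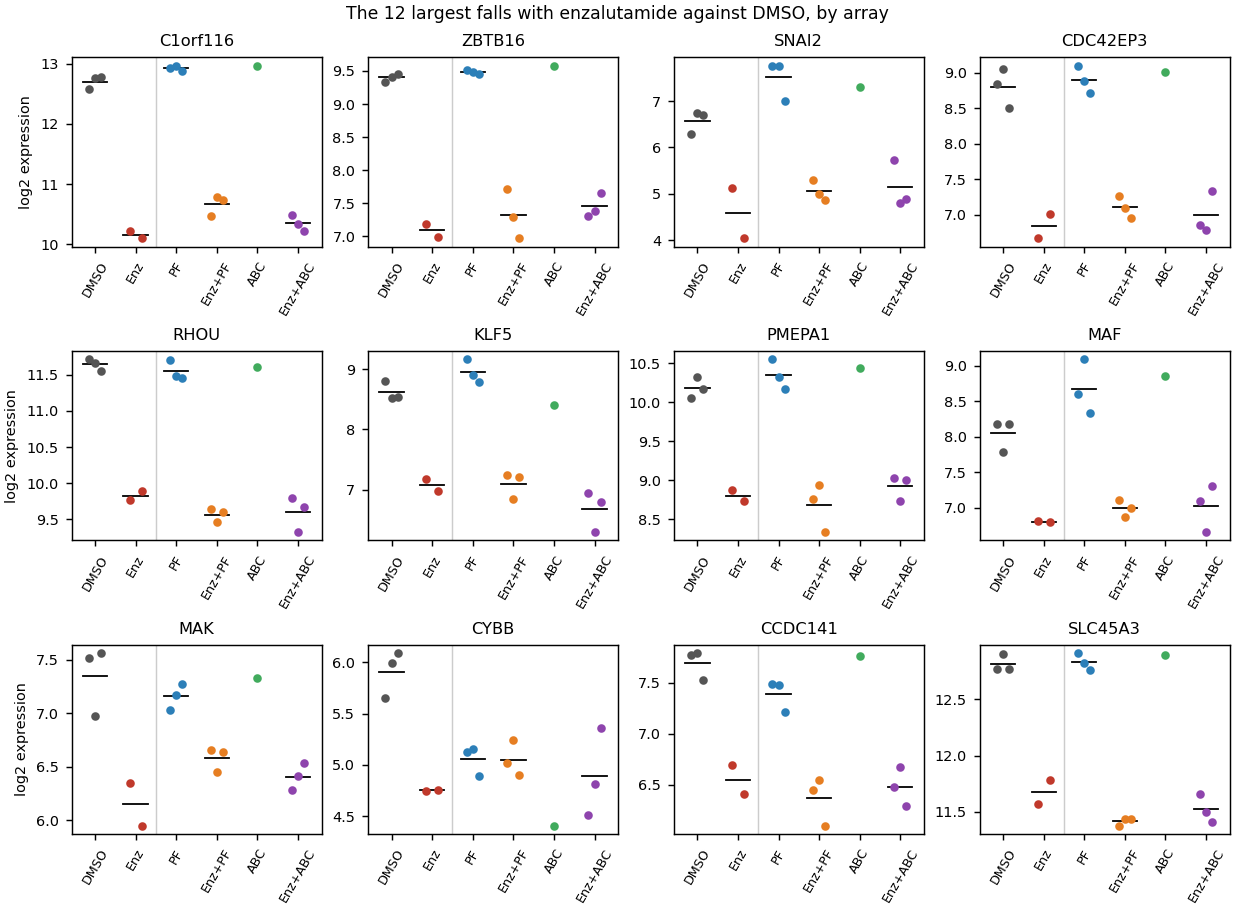
Each panel shows 1 of the 12 largest falls with enzalutamide against DMSO, as log2 expression on all 15 arrays, with a bar for each group's mean (Enz enzalutamide, PF PF-543, ABC ABC294640). The vertical line parts the 5 arrays compared from the 10 others, and C1orf116, ZBTB16, CDC42EP3 and RHOU are low in every group given enzalutamide.

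Stress genes that limit growth were among the rises. Under amino acid shortage or stress of the endoplasmic reticulum, phosphorylation of eIF2-alpha favours translation of the transcription factor ATF4, which then induces amino acid transporters, synthesis enzymes, tRNA synthetases and brakes on the growth kinase mTORC1. Of 10 genes that brake mTORC1 or break down glutathione, 3 rose and 0 fell, with a median of 0.25. CHAC1, an enzyme that cleaves glutathione and a well-known ATF4 target, rose 2.28-fold, from 10.54, 10.63 and 10.71 to 11.94 and 11.69 (log2 1.19 ± 0.12, adjusted p = 0.000604). DDIT4 (REDD1), which restrains mTORC1 through the TSC complex, rose 2.28-fold, from 11.94, 11.68 and 11.43 to 12.86 and 12.89 (log2 1.19 ± 0.14, adjusted p = 0.00284). SESN2, a leucine sensor that inhibits mTORC1 through GATOR2, rose 1.93-fold, from 7.88, 7.96 and 8.22 to 8.99 and 8.94 (adjusted p = 0.0338). In the PF-543 background CHAC1 and DDIT4 rose as well (1.28 and 1.27, adjusted p = 7.73e-05 and 0.000363), and SESN2 gave 0.67 (adjusted p = 0.126). Leaving out enzalutamide replicate 2 put DDIT4 at 0.0508, and SESN2 passed only without DMSO replicate 3 (up to 0.178).

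The CHAC1 promoter is shown because it held the only match to a C/EBP-ATF response element among the 18 promoters found for the 22 genes that rose. The sequence is from RefSeq on GRCh38.p14, chr15:40953222-40953309, plus strand, upstream of the gene's start, and capitals mark the match.
CHAC1: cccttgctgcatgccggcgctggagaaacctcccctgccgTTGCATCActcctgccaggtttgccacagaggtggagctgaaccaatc
The capitals lie 209 to 202 bases before the start and read TGATGNAA, the element searched for, on the opposite strand. Over the 250 bases before each start and both strands, the element was in 1 of 18 promoters of genes that rose (5.56%), 0 of 25 that fell, and 313 of 14250 of genes tested (2.2%). A match describes letters, and its absence from a short window says nothing of a factor's binding elsewhere.

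In the lists for the other arms of this response, 2 genes rose. The glycine transporter SLC6A9 (GLYT1) was the 1 of 12 amino acid transporters past the threshold, at 9.60, 9.65 and 9.44 with DMSO and 10.51 and 10.37 with the drug (1.84-fold, adjusted p = 0.0052). STC2, a secreted glycoprotein induced by stress, was the 1 of 8 secreted stress genes (log2 0.60, adjusted p = 0.0267). Both also rose on the PF-543 arrays (0.66 and 0.57, adjusted p = 0.0195 and 0.0199). None of 9 ATF4-type factors, 13 enzymes of serine, asparagine and proline synthesis, 14 cytosolic tRNA synthetases or 16 endoplasmic reticulum chaperones and related targets passed, with medians of 0.22, 0.11, 0.092 and 0.078. ATF4 itself read 14.01, 13.98 and 14.18 and then 14.35 and 14.38 (log2 0.31, adjusted p = 0.183). DDIT3 (CHOP), a factor that acts downstream of ATF4, read 7.80, 7.74 and 7.36 and then 8.56 and 8.36 (0.83, adjusted p = 0.151), and rose by 1.64 on the PF-543 arrays (adjusted p = 0.00167). The asparagine tRNA synthetase NARS1 (0.49, adjusted p = 0.0618) and the serine enzyme PSPH (0.47, adjusted p = 0.111) had both enzalutamide arrays above DMSO. SLC6A9 lost its call without either enzalutamide array (up to 0.0827), and STC2 in every fit that left out an array (up to 0.198).

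MYC, which encodes a growth-promoting transcription factor, rose 1.5-fold, from 13.99, 14.07 and 13.98 to 14.60 and 14.59 (log2 0.58 ± 0.09, adjusted p = 0.0134). It was the only member to pass of 15 measured genes of MYC and ribosome biogenesis, whose median was 0.20, and of 21 immediate early genes, whose median was -0.062. CAD, the first enzyme of pyrimidine synthesis and a MYC target, read 9.13, 9.08 and 9.48 and then 9.91 and 9.88 (0.67, adjusted p = 0.0855). With PF-543 in both groups, MYC and CAD gave 0.12 and -0.07 (adjusted p = 0.753 and 0.929). MYC lost its call without either enzalutamide array (up to 0.12).

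Inhibitors of TGF-beta signalling moved both ways. BAMBI, a decoy receptor for TGF-beta and BMP ligands, rose 1.69-fold, from 12.89, 12.65 and 12.87 to 13.53 and 13.59 (adjusted p = 0.0078), and rose on the PF-543 arrays too (0.55, adjusted p = 0.0352). PMEPA1, the other member to pass of 13 genes of TGF-beta and BMP feedback, fell as given above. The ligand BMP7 rose 1.55-fold, from 8.04, 7.82 and 7.81 to 8.44 and 8.61 (adjusted p = 0.0267). BAMBI lost its call without either enzalutamide array (up to 0.115), and BMP7 without those or DMSO replicate 2 or 3 (up to 0.224). On the PF-543 arrays BMP7 gave 0.23 (adjusted p = 0.548).

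MAP3K8, TLK1, PRKD1 and KDM6A also rose, of which only MAP3K8 belonged to a list. MAP3K8 (TPL2), a kinase that links inflammatory receptors to ERK, rose 2.42-fold, from 7.19, 7.06 and 6.91 to 8.59 and 8.07 (adjusted p = 0.00578), and was the only one of 12 NF-kB regulators and targets to pass. NFKBIA, the inhibitor that NF-kB itself induces, read 12.61, 12.51 and 12.56 and then 11.96 and 11.90 (log2 -0.63, adjusted p = 0.0657), and fell by 0.85 on the PF-543 arrays (adjusted p = 0.0045). TLK1, a kinase for histone chaperones, read 9.87, 10.22 and 10.32 and then 10.94 and 11.12 (1.86-fold, adjusted p = 0.0107). PRKD1, protein kinase D1, rose by 0.74 (adjusted p = 0.0052), and KDM6A, a demethylase of histone H3 at a repressive lysine mark, by 0.61 (adjusted p = 0.0242). MAP3K8 lost its call without enzalutamide replicate 1 (0.0864), TLK1 and PRKD1 without either enzalutamide array (up to 0.165 and 0.0709), and KDM6A in every fit that left out an array (up to 0.165). In the PF-543 background MAP3K8 gave 0.44 (adjusted p = 0.453), PRKD1 0.46 (0.0519) and KDM6A 0.44 (0.076), and TLK1 is described with that comparison.

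Of 15 measured BCL2 family genes BOK, a pore-forming relative of BAX and BAK, rose, from 7.18, 7.27 and 7.42 to 7.95 and 8.20 (1.72-fold, adjusted p = 0.0144). Of 13 FOXO targets CCNG2, an atypical cyclin linked to growth arrest, rose 1.55-fold (adjusted p = 0.0459), whereas TXNIP, which limits glucose uptake, read 10.76, 10.86 and 10.57 and then 9.98 and 9.79 (log2 -0.85, adjusted p = 0.0883). MRGPRD, a sensory-neuron receptor, had the largest difference among the rises, at 4.87, 4.31 and 5.01 and then 5.98 and 6.25 (log2 1.39 ± 0.25, adjusted p = 0.0377). FAM114A1 (0.90, adjusted p = 0.013), DCAF4, a substrate receptor of a ubiquitin ligase (0.76, 0.0287), MYOM3, a sarcomere protein (0.73, 0.0414), NETO1, a glutamate receptor accessory protein (0.60, 0.0144), and RGS14, which shortens G protein signals (0.49, 0.0451), completed the 22. MRGPRD, FAM114A1 (5.83 to 6.98) and MYOM3 (3.70 to 4.74) lay below the median gene on all 5 arrays, and none was judged against background. Each gene of this paragraph that rose lost its call without either enzalutamide array, FAM114A1 at up to 0.137 and NETO1 at up to 0.166. CCNG2 and RGS14 lost it in every fit that left out an array (up to 0.244 and 0.274), and BOK, MRGPRD, DCAF4 and MYOM3 also without 2 of the DMSO arrays, left out singly (up to 0.243). With PF-543 in both groups, BOK (log2 0.28, adjusted p = 0.505), CCNG2 (0.55, 0.0603), MRGPRD (0.44, 0.649), DCAF4 (0.24, 0.642), MYOM3 (0.06, 0.936), NETO1 (0.15, 0.692) and RGS14 (0.01, 0.985) did not pass.

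**Figure D3:**
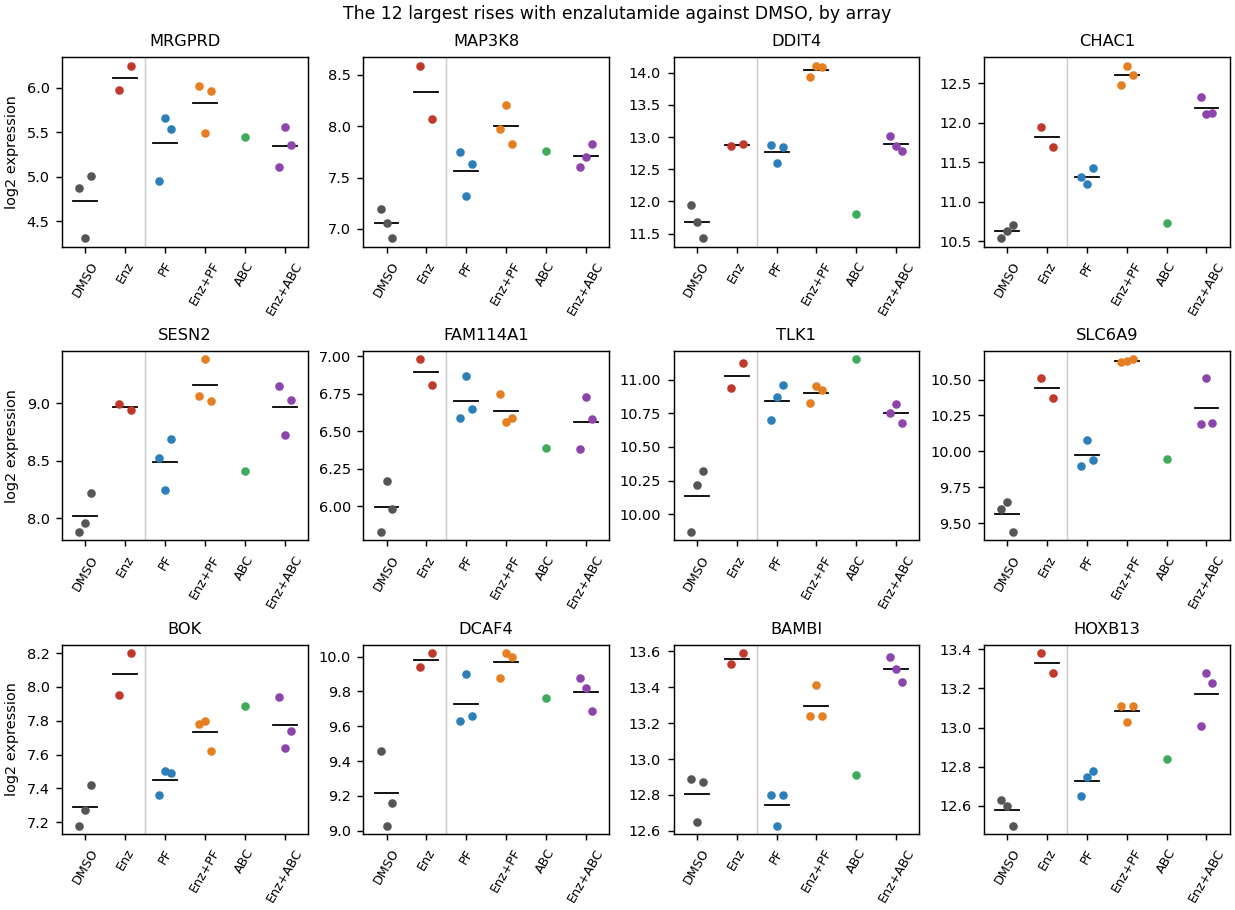
Each panel shows 1 of the 12 largest rises with enzalutamide against DMSO, as log2 expression on all 15 arrays, with a bar for each group's mean (Enz enzalutamide, PF PF-543, ABC ABC294640). CHAC1, DDIT4 and SLC6A9 are higher with enzalutamide plus PF-543 than with PF-543. In the PF-543 group DDIT4, TLK1 and FAM114A1 are already near their enzalutamide level.

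Broad programs of growth and metabolism gave no calls against DMSO at 6 h. None of 19 cholesterol genes passed, and their median was -0.17. Below 0 lay 15 of them (52.3% of all genes did), and 9 had both enzalutamide arrays below DMSO (14.6% of all genes did). MSMO1, a sterol oxidase, read 14.10, 14.09 and 14.07 and then 13.72 and 13.75 (log2 -0.35, adjusted p = 0.184). On the PF-543 arrays 1 of the 19 cholesterol genes fell (0.232% of all genes did). There 18 of them lay below 0 (48.2% of all genes did), with a median of -0.23. In 11 fatty acid genes the median was 0.033 against DMSO, with 8 above 0 (47.6% of all genes were). With PF-543 in both groups that median was -0.14, with 10 below 0 (48.2% of all genes were). Of 23 genes of G1/S and DNA replication none passed, with a median of -0.085. Without overlap 10 lay below DMSO and 3 above, as did 14.6% and 13.5% of all genes. The replication cyclin CCNE2 (-0.40, adjusted p = 0.156) and the mitotic motor CENPE (-0.48, adjusted p = 0.113) had the largest differences of that list and of 16 mitotic genes. The 10 p53 targets, 10 heat shock genes, 12 NRF2 targets, 18 glycolysis and hypoxia genes, 11 interferon-stimulated genes and 8 polyamine genes also gave 0 calls, with medians between -0.038 and 0.08. All 29 ribosomal protein genes and 8 metallothionein and zinc export genes missed the threshold as well, with medians of 0.065 and 0.26. All 8 of the latter lay above 0 (47.6% of all genes did), and 5 of them without overlap (13.5% of all genes did). MT1E led, at 5.28, 5.54 and 5.67 and then 6.03 and 6.07 (0.55, adjusted p = 0.146). On the PF-543 arrays the median of the 8 was 0.05. SPHK1, the sphingosine kinase that PF-543 targets, read 8.05, 8.0 and 7.93 and then 7.88 and 8.10 (adjusted p = 0.995), and 0 of 17 sphingolipid genes passed.

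**Figure D4:**
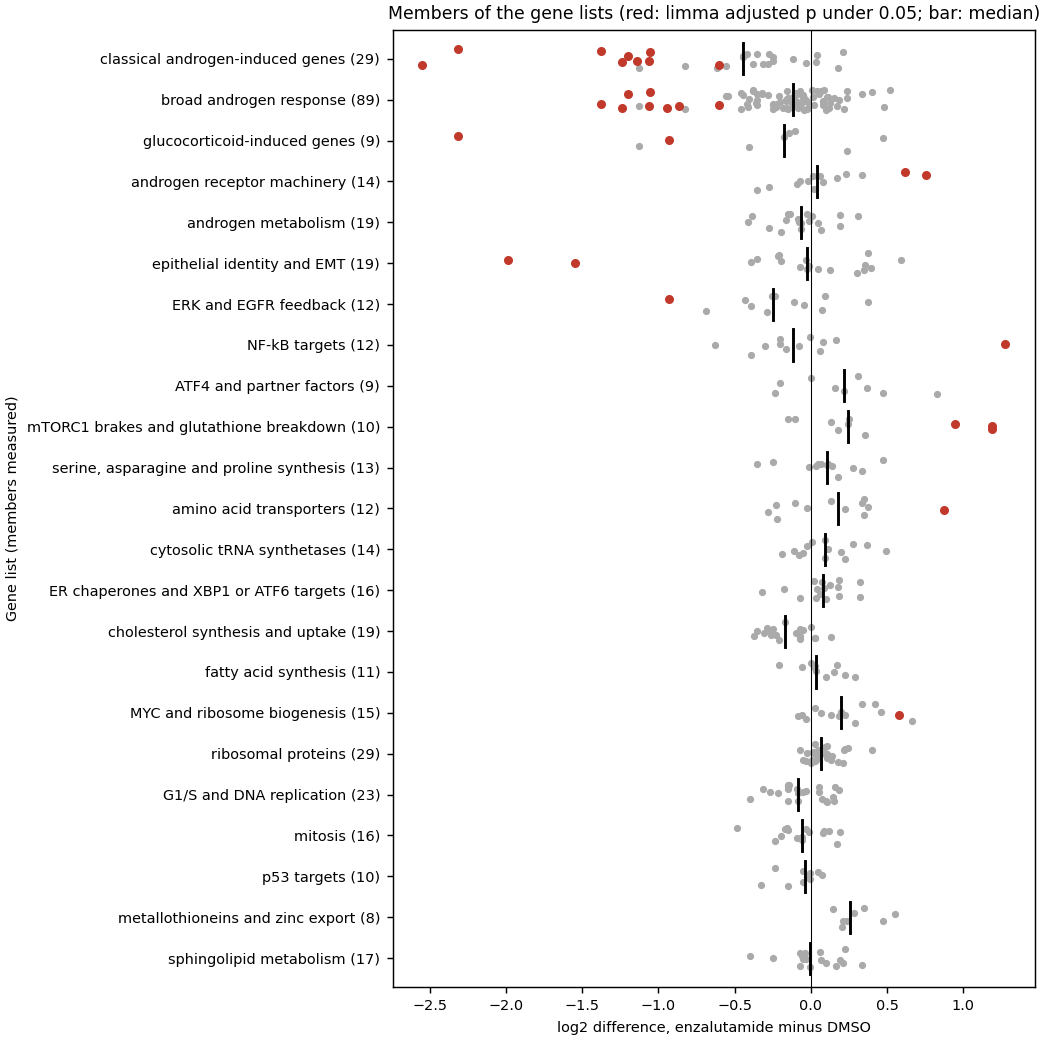
Each point is the log2 difference, enzalutamide minus DMSO, of 1 gene of the list named on the left, with the number of members measured, the list's median as a bar and red for genes past the threshold. The classical androgen-induced genes reach furthest down, with a median of -0.44, and CHAC1, DDIT4, SESN2, SLC6A9 and MAP3K8 stand out to the right in their lists.

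Adding enzalutamide to PF-543, a comparison of 3 arrays with 3 others, also changed 55 genes, of which 41 fell (0.232% of those tested) and 14 rose (0.0792%). Its log2 differences shared no array with those of enzalutamide against DMSO. The p-values of both comparisons rest on a spread pooled over every group with more than 1 array, so their calls were not independent. Falls recurred more often than rises: 21 genes fell in both, 63.6% of the 33 and 51.2% of the 41, and 5 rose in both, 22.7% of the 22 and 35.7% of the 14. Whether falls and rises differed in this was not tested. The 5 were CHAC1, DDIT4, SLC6A9, BAMBI and STC2. Among the 33 falls, 32 also lay below 0 with PF-543 (48.2% of all genes did), and their median moved from -1.06 to -0.76. Of the 22 rises 21 also lay above 0 (51.3% of all genes did), and their median moved from 0.76 to 0.40. Over all genes the differences of both comparisons correlated with r = 0.19, a description in which genes are not independent and all arrays share a platform. When single arrays were left out, the count of calls in the PF-543 background was 24 to 39: 24 and 25 without PF-543 replicates 1 and 2, and 25 and 30 without replicates 3 and 2 of the combination.

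The classical androgen-induced genes gave the same count in both backgrounds, 9 falls and 0 rises, with a median of -0.38 on the PF-543 arrays, but not the same genes: 8 fell in both, MAK passed against DMSO alone and KLK2 with PF-543 alone. C1orf116 read 12.94, 12.97 and 12.89 with PF-543 and 10.47, 10.78 and 10.73 after enzalutamide was added, a log2 difference of -2.27 ± 0.11 (adjusted p = 3.78e-07). Its difference between the backgrounds was -0.28, with a 95% interval of -0.62 to 0.07. For TMPRSS2 the difference between backgrounds was 0.06 (-0.25 to 0.36), and for CHAC1 it was -0.10 (-0.44 to 0.25). For MAK it was -0.62 (-1.13 to -0.11), an interval that leaves out 0, with an adjusted p of 0.556 over all genes. The intervals of C1orf116, TMPRSS2 and CHAC1 leave room for effects that differ by up to 0.62 log2 units.

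No gene passed a limma test of the difference between the enzalutamide effects without and with PF-543: 0 genes (0%) at an adjusted p under 0.05, the smallest being 0.215, and 1428 (8.07%) at an unadjusted p under 0.05. With a robust and trended prior 12 genes passed. Among genes called against DMSO, 13 of 22 rises and 10 of 33 falls had an unadjusted p under 0.05 for this difference, but the same arrays had chosen them, which favours a larger effect in the first comparison. GPR151 read 4.64, 4.81 and 4.58 with PF-543 and 5.02, 4.59 and 4.73 with both drugs, so that its difference was 0.10 there and -1.13 against DMSO (adjusted p of the difference = 0.392). CYBB read 5.13, 5.16 and 4.89 with PF-543 and 5.02, 5.24 and 4.90 with both, a difference of -0.01 against -1.16 without it (adjusted p of the difference = 0.416). FAM114A1 and TLK1 differed by 0.90 and 0.89 against DMSO and by -0.07 and 0.06 with PF-543 (adjusted p of both differences = 0.392). In these 4 genes the PF-543 arrays lay on the enzalutamide side of all DMSO arrays. It also held for CHAC1, DDIT4, SLC6A9 and STC2, which rose in both comparisons, though not for BAMBI. Whether that shift bears on the step with PF-543 was not tested. PF-543 alone against DMSO gave log2 1.09 for DDIT4 and 0.69 for CHAC1 (limma adjusted p = 0.00231 and 0.0171). TLK1 (0.71, 0.0275), FAM114A1 (0.71, 0.0279), CCNG2 (0.77, 0.0074), RND3 (-0.66, 0.0429) and NPY4R (-0.46, 0.0464) also passed in that comparison. CYBB (-0.85, 0.067), GPR151 (-0.49, 0.138), SLC6A9 (0.41, 0.0975) and STC2 (0.20, 0.326) did not pass there. Over the called genes, the PF-543 mean was nearer to the enzalutamide mean than to the DMSO mean in 7 of 22 rises and 3 of 33 falls, and the single ABC294640 array was in 9 and 4. In the step from that 1 array to enzalutamide plus ABC294640, 30 of 33 falls again lay below 0 and 16 of 22 rises above it, where 48.4% and 51.6% of all genes did, with medians of -0.77 and 0.26.

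**Figure D5:**
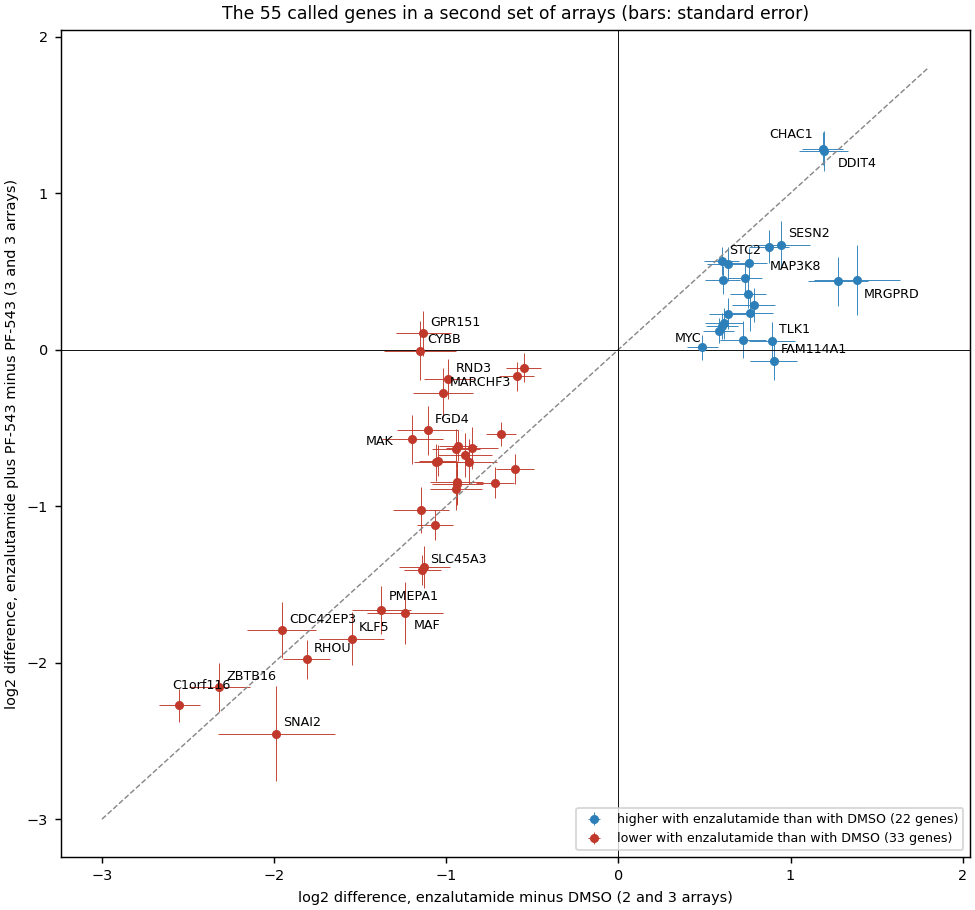
Each point is 1 of the 55 genes called with enzalutamide against DMSO, with its log2 difference there on the horizontal axis, its log2 difference when enzalutamide was added to PF-543 on the vertical axis, standard errors as bars and the line of equal values dashed. C1orf116, ZBTB16, RHOU, CHAC1 and DDIT4 lie near the line, whereas GPR151, CYBB, TLK1 and FAM114A1 lie near 0 on the vertical axis.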

How the data were processed

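The authors deposited log2 expression values per probe set, made with RMA and Transcriptome Analysis Console 4.02 per the submitters' processing notes. RMA corrects background, normalizes between arrays and summarises probes, which hides a shift common to most genes. Not given in the sources used here are the RMA variant, the annotation version and the build. Wells held 140000 cells in 2 ml for 3 days, and 100 ng of RNA was labelled, per the labels' protocols. Of 21448 probe sets, 17709 had 1 gene symbol and 3739 were unnamed. In 20 genes with more than 1 probe set the brightest on average was kept, leaving 17687 genes.

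Group means were fitted over all 15 arrays with limma 3.58.1 in R 4.3.3 (9 residual and 3.82 prior degrees of freedom), with Benjamini-Hochberg adjustment over the 17687 genes of each comparison and a threshold of 0.05. Errors are standard errors, and intervals are at 95%. The script was tested on simulated data, with 50 of 17687 genes changed at each size. Noise was normal and independent between genes. No offset of the DMSO arrays was simulated, so recovery and false calls need not carry over to these data. For enzalutamide against DMSO the script recovered 36% of changes of 0.5 log2 units, 76% of 1 and 98% of 1.5, with 7 false calls. A gene without a call may therefore still have changed. Replicate numbers were not used to pair the arrays. The correlations of same-numbered enzalutamide and DMSO arrays' deviations were 0.006 to 0.016. They cannot show that pairing is absent, since the deviations of 2 arrays from their mean are mirror images. Each list is described by counts and its median, with no test of the list.

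The comparison, the gene lists and the rule for named genes were chosen with earlier results of these data known. The rule took the 20 largest rises and falls past the threshold without overlap, up to 6 members per list past it and, as values, up to 3 that did not pass. The 12 called genes outside it (LRIG1, OTULINL, FAM110B, MTMR9, PTPN21, PCDH20, KLF7, FBXO38, ELL2, ZBTB14, NPY4R and RGS14) were named after their values were seen, as were the KLF and ZBTB families and the genes grouped by role. Some items are not reported here. Promoters are RefSeq's, on GRCh38.p14. Alternatives were other normalizations, filters, priors, array weights, thresholds, a replicate block, only the arrays compared, and each array left out. Leaving out the ABC294640 array was added after seeing the data.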

Additional observations from a re-analysis of the deposited data

Results flagged for a closer look

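Probe sets without a gene name stood outside the gene-level comparison and also held differences. With all 21448 probe sets tested, 11 of the 3739 unnamed ones (0.294%) passed the limma threshold for enzalutamide against DMSO, 9 lower and 2 higher. The probe set TC1200012763.hg.1 read 6.47, 5.71 and 6.11 with DMSO and 4.77 and 5.01 with enzalutamide (log2 -1.21, adjusted p = 0.0152). The probe set TC0700013618.hg.1 read 7.46, 7.33 and 7.46 and then 8.22 and 7.95 (log2 0.67, adjusted p = 0.0324). Their genes are unnamed here.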

How the results depend on the processing

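Of the 55 called genes, 0 reversed under the alternatives run, which was largely fixed in advance. In these genes the arrays of the groups do not overlap, so leaving out or weighting arrays cannot turn a sign. Filters, priors and thresholds leave the log2 differences as they are. For enzalutamide against DMSO, the main count of 55 genes became 266 with a robust and trended prior (158 higher and 108 lower), 122 at an adjusted p under 0.10, 23 with a minimum of 2-fold, and 3 with only the 5 arrays compared, a fit with fewer residual degrees of freedom. For enzalutamide added to PF-543, the count of 55 became 147, 79, 16 and 17 under those settings. For the difference between backgrounds, the robust and trended prior gave 12 genes (9 higher and 3 lower) and all other alternatives gave 0. The cause of the shift with that prior was not tested. Leaving out 1 array at a time gave 12 to 58, 24 to 39 and 0 to 0 genes for these 3 comparisons. Other normalizations, array weights, leaving out the dimmest 25% of genes and testing all probe sets gave 46 to 80 genes for enzalutamide against DMSO and 40 to 69 in the PF-543 background. With the replicate number as a block, the counts were 41 (13 higher and 28 lower, 35 of them among the 55) and 40, and the arrays share only a number. Without the ABC294640 array both counts stayed at 55. Only 2 enzalutamide arrays and the shifted DMSO arrays limit what can be said of small differences, and signal over background was not analysed here.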
